A study of Bos taurus with 12 samples.

Results

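LBP, TLR9, CGAS, NOD1 and NFKB1, 5 genes of pathogen sensing and NF-kappaB signalling, were followed in the blood DNA methylation of 12 dairy cows. The genes were chosen with earlier results of these data known, and their sites had been selected on the authors' difference between the groups and its q-value. Every deposited cytosine lying in or near one of them was taken, by the Ensembl gene named in its annotation, or by the listed gene symbol where the annotation named none. Distal intergenic cytosines were left out. This gave 28 sites in 5 genes, of 216,990 deposited sites in all, of which 92,535 lay in gene features, and of 8,569 named genes with such a site.

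All cows lived on 1 farm under shared conditions and were between 3 and 8 years old. Blood was drawn before the outcome was known. The 6 subfertile cows were culled within the next year for reproductive complications, and the 6 fertile cows remained in the herd free of fertility problems. The labels give no breed, no sorted cell type, no batch and no treatment, and the material is whole blood, a mixture of leukocytes. The cow numbers in the labels are higher in every subfertile cow than in every fertile cow, and what the numbers stand for is not given, so anything they follow cannot be told apart from the group. In the table, the subfertile cows carry the column prefix F and the fertile cows R. The labels were followed. Should the prefixes stand for the opposite groups, higher and lower would swap throughout.

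Values are per cytosine and cow, as percent methylated after enzymatic conversion, in coordinates of ARS-UCD1.2. How many reads a value rests on is unknown. Sequence variants at the cytosines were not examined in these cows, so low values from a variant were not separated from unmethylated DNA. The authors' deposited table holds only sites with an absolute difference above 25 percentage points and a q-value below 0.01. At the 28 sites, the absolute difference in the authors' deposited table ran from 27.4 to 55.8 points, with a median of 36.4, against a median of 34.7 over all sites. The sites just outside these limits are not analysed here. Because this selection used the same cows and contrast, group differences are described with the spread between cows and are not tested. As an unweighted difference of group means, 4 of the 28 sites lay under 25 points. A level is the mean ± SD of percent methylated over 6 cows, or over the n stated, with subfertile cows first.

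Pattern recognition receptors detect molecules shared by microbes and start inflammation. LBP carries bacterial lipopolysaccharide to its receptor complex, TLR9 recognises unmethylated CpG DNA in endosomes, CGAS recognises DNA in the cytosol and signals through STING, and NOD1 recognises peptidoglycan fragments in the cytosol. Most of these routes release NF-kappaB, whose p105 and p50 proteins are encoded by NFKB1. In blood, neutrophils, monocytes and lymphocytes carry these pathways in different proportions. Methylation within a gene body or near a start does not by itself give the gene's expression, which was not measured here.

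The 28 sites divided evenly, 14 with a higher and 14 with a lower mean in subfertile cows. Of all deposited sites, 52.1% were higher and 47.9% lower. All 4 LBP sites and all 8 NOD1 sites were higher in subfertile cows, and all 4 TLR9 sites and all 4 CGAS sites were lower. NFKB1 had 6 lower and 2 higher sites. Sites of a gene pointing 1 way are common in this table: 50.5% of genes with 4 sites and 29.1% of genes with 8 sites did so. At 3 of the 28 sites no subfertile cow overlapped a fertile cow, 1 each in LBP, NOD1 and NFKB1, against 3.1% of all deposited sites. The LBP and NOD1 sites were higher in subfertile cows and the NFKB1 site was lower. Of all deposited sites, 1.94% were higher and 1.16% lower without overlap of the groups. Without subfertile cow 1 the count was 5, but leaving out a cow can only keep or raise this count. The share over all sites was not computed for that setting.

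**Figure D1:**
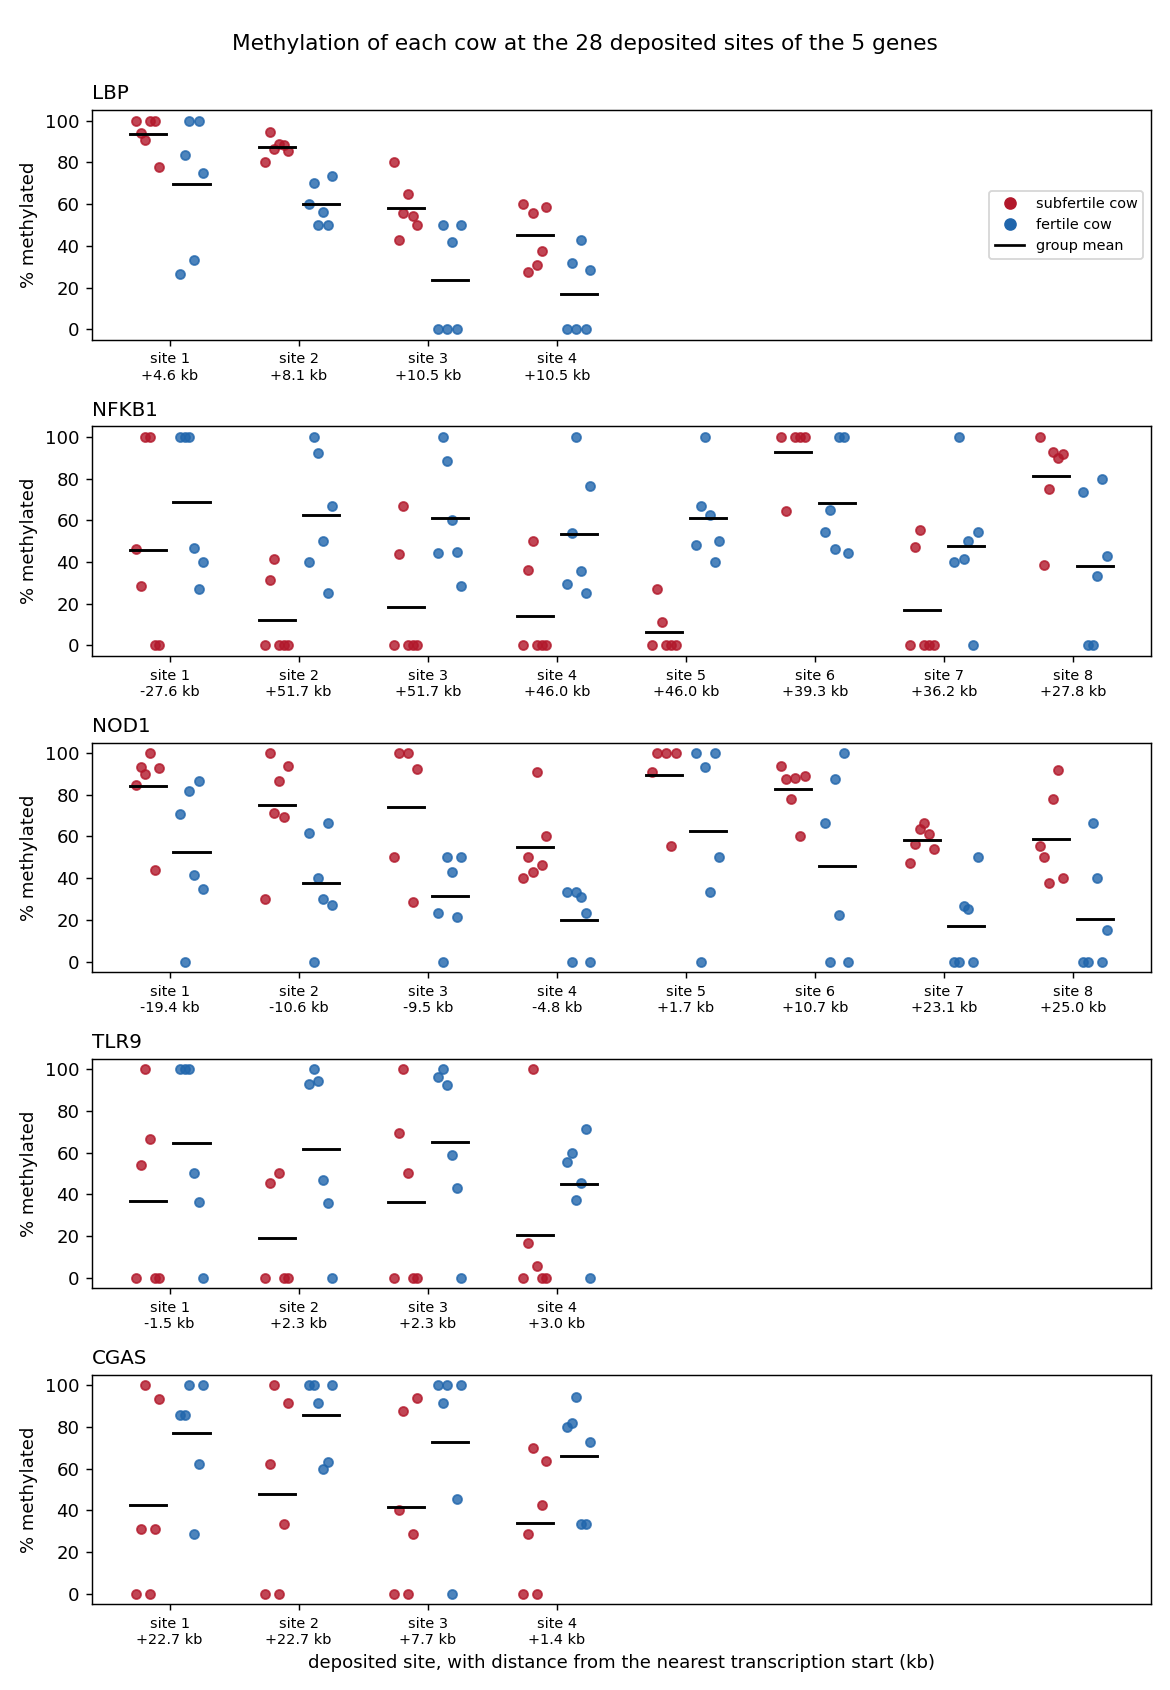
Percent methylated (vertical axis) of each subfertile (red) and fertile (blue) cow at the 28 sites, ordered by position within each gene, with the distance in kb from the nearest annotated transcription start under each site and group means as black bars. All LBP and NOD1 means are higher in red and all TLR9 and CGAS means are lower, while only LBP site 2, NFKB1 site 5 and NOD1 site 4 show no overlap of the groups.

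LBP (ENSBTAG00000016864, chromosome 13, forward strand) was the only one of the 5 genes whose mean over its sites did not overlap between the groups. The mean of the 4 sites ran from 64.7 to 80% in subfertile cows, with a median of 70.6%. In fertile cows it ran from 21.7 to 58.7%, with a median of 40.5%. The group means were 71.0 ± 5.13% and 42.6 ± 13.8%, a difference of 28.4 points. Means without overlap were found in 3.38% of the 7,951 named genes with a mean in all 12 cows. The fertile cows were the more spread group, with cow 1 lowest and cows 2 and 6 closest to the subfertile range.

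The LBP sites lay within 5.88 kb at the front of a 32.0 kb transcript. Site 2 (position 67,223,071, intron 3 of 14) separated the groups, at 80 to 94.4% in subfertile and 50 to 73.3% in fertile cows (87.3 ± 4.70% and 59.9 ± 9.92%). Site 1 (67,219,586, exon 3 of 15) had 93.8 ± 8.72% and 69.7 ± 32.3%, and the groups overlapped. Fertile cows 1 and 4 were at 26.7% and 33.3% there, while fertile cows 3 and 5 were at 100%. Sites 3 and 4 (67,225,464 and 67,225,465, intron 3) are the 2 strands of 1 CpG. Their levels were 57.9 ± 12.96% against 23.6 ± 26.0% and 45.0 ± 14.8% against 17.2 ± 19.4%. Fertile cows 1, 3 and 5 were listed at 0 on both strands, and no subfertile cow was. LBP was also the only gene here in which no site ran from a cow under 10% to a cow over 80%, a range found at 22 of the 28 sites (78.6%) and at 69.9% of all deposited sites.

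TLR9 (ENSBTAG00000018198, chromosome 22, forward strand) had 4 sites, all annotated as promoter because they lie within 3 kb of the start. Only site 1 lies upstream of it, by 1.47 kb, and the other 3 are 2.33 to 2.98 kb downstream, inside the 4.28 kb transcript. The gene mean was 0 to 100% in subfertile cows with a median of 21.5%, and 0 to 90% in fertile cows with a median of 65.7%. Of the 6 subfertile cows, 5 lay within the fertile range. Group means were 31.6 ± 40.1% and 59.0 ± 34.3%, and the 27.5-point difference was smaller than either SD.

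The cows stood in a like order at TLR9 sites 1 to 3 and in a partly different one at site 4. Subfertile cows 1, 5 and 6 and fertile cow 6 were listed at 0 at all 4 sites. At site 1 (position 48,675,187), fertile cows 1, 2 and 3 and subfertile cow 3 were at 100%, and the remaining 4 cows lay between 36.4% and 66.7%. The same 3 fertile cows were at 92.3 to 100% at sites 2 and 3 (48,678,987 and 48,678,988, the 2 strands of 1 CpG). Levels were 36.7 ± 43.0% against 64.4 ± 42.3% at site 1, 19.1 ± 26.2% (n = 5) against 61.7 ± 40.5% at site 2, and 36.5 ± 43.1% against 65.0 ± 39.2% at site 3. Subfertile cow 3 has no value at site 2, so that site's mean lacks the cow that was at 100% at the other 3. Site 4 (48,679,639) had 20.4 ± 39.5% against 45.0 ± 24.97%. There, fertile cow 5 was the highest fertile cow at 71.4%, fertile cows 1, 2 and 3 were at 37.5 to 60%, and subfertile cow 3 alone was at 100%. Subfertile cow 4, at 50 to 66.7% at the other sites, was at 5.56%. At least 1 cow at 0 at every site occurred in 31.2% of the 584 genes with 4 sites.

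CGAS (ENSBTAG00000000892, chromosome 9, reverse strand) showed the same kind of spread over a longer distance. Its gene mean ran from 0 to 89.4% in subfertile cows (median 37.3%) and from 30.5 to 96.5% in fertile cows (median 90.6%), with group means of 41.6 ± 39.4% and 75.4 ± 27.7%. Subfertile cows 1 and 4 were listed at 0 at all 4 sites, below every fertile cow in the gene mean. Subfertile cows 3 and 6, at 89.4% and 85.7%, lay within the fertile range. Among fertile cows, cows 4 and 5 stood lowest, at 30.5% and 51.1%. The 33.8-point difference was close to the pooled SD of 34.0 points.

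The CGAS sites spanned 21.3 kb, nearly the whole 23.3 kb transcript. Sites 1 and 2 (positions 12,935,382 and 12,935,383) are the 2 strands of a CpG in exon 5 of 5 and had 42.6 ± 44.2% against 77.1 ± 27.4% and 47.9 ± 43.9% against 85.8 ± 19.1%. Site 3 (12,950,401, intron 2 of 4) had 41.7 ± 41.2% against 72.9 ± 41.5%. Site 4 (12,956,658), annotated as promoter and 1.43 kb inside the gene, had 34.2 ± 30.3% against 65.9 ± 26.2%. The groups overlapped at each of them.

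NOD1 (ENSBTAG00000038235, chromosome 4, forward strand) had the largest difference of gene means of the 5 genes. Its mean over 8 sites ran from 57.0 to 88.8% in subfertile cows (median 70.8%) and from 0 to 59.9% in fertile cows (median 38.8%). Group means were 71.4 ± 12.4% and 36.0 ± 20.9%, a difference of 35.5 points. Of the 6 subfertile cows, 5 lay above every fertile cow, and subfertile cow 5 at 57.0% lay below fertile cow 3 at 59.9%. Fertile cow 2 was listed at 0 at all 8 sites, over 47.0 kb, which occurred for at least 1 cow in 15.2% of the 237 genes with 8 sites. The difference was 28.3 points without that cow.

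The first 4 NOD1 sites lie 4.81 to 19.4 kb upstream of the nearest annotated start, within intron 1 of a longer transcript. Site 4 (position 65,867,903) separated the groups, at 40 to 90.9% in subfertile and 0 to 33.3% in fertile cows (55.0 ± 18.9% and 20.1 ± 16.0%). Site 1 (65,853,345) had 84.1 ± 20.4% against 52.6 ± 33.3%, site 2 (65,862,093) 75.2 ± 25.2% against 37.6 ± 24.5%, and site 3 (65,863,236) 74.2 ± 32.9% (n = 5) against 31.2 ± 19.9%. At these 3 sites the groups overlapped. Site 5 (65,876,992), annotated as promoter and 1.65 kb downstream of the start, had 89.3 ± 19.3% (n = 5) against 62.8 ± 41.7%. Fertile cows 1 and 5 were at 100% there, level with 3 subfertile cows.

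Further into NOD1, site 6 (65,886,031, intron 6 of 10) had 82.7 ± 12.3% against 46.1 ± 44.4%. Site 7 (65,898,450, intron 8 of 10) had the smallest subfertile spread of the gene, from 47.1 to 66.7% (58.1 ± 7.16%), against 0 to 50% in fertile cows (16.9 ± 20.6%). The groups met there only through subfertile cow 1 at 47.1% and fertile cow 6 at 50%. Site 8 (65,900,360, intron 9 of 10) had 58.7 ± 21.6% against 20.3 ± 27.6%.

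NFKB1 (ENSBTAG00000020270, chromosome 6, reverse strand) held sites of both directions in 1 gene, all 8 in introns. Over the 6 lower sites, subfertile cows ran from 0 to 54.2% (median 12.2%) and fertile cows from 27.0 to 87.0% (median 51.8%), with means of 19.0 ± 21.8% and 59.1 ± 23.5%. Over the 2 higher sites, subfertile cows ran from 51.4 to 100% (median 95.4%) and fertile cows from 23.1 to 90% (median 53.8%), with means of 85.6 ± 19.0% and 53.3 ± 24.8%. In each set 4 of the 6 subfertile cows lay outside the fertile range. A mean over all 8 sites mixes the 2 directions. It was 35.3 ± 12.5% against 57.7 ± 11.97%, 22.4 points lower in subfertile cows. It was 43.0 points lower when the median of the sites was taken and 14.1 points lower when the strands of a CpG were averaged first. With only the site that did not run from under 10% to over 80%, it was 24.5 points higher.

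Intron 6 of 23 held 2 CpGs present on both strands, and the largest NFKB1 differences were at sites 5 and 2 of these. Site 5 (position 22,256,466) separated the groups, with subfertile cows from 0 to 27.3% and fertile cows from 40 to 100% (6.40 ± 11.1% and 61.2 ± 21.4%). Its partner on the other strand, site 4 (22,256,465), had 14.3 ± 22.6% against 53.4 ± 29.7%, and the groups overlapped. Sites 2 and 3 (22,250,689 and 22,250,690) had 12.2 ± 19.1% against 62.3 ± 29.6% and 18.4 ± 29.4% against 61.0 ± 27.7%. Subfertile cows 1, 4, 5 and 6 were listed at 0 at all 4 of these cytosines, where no fertile cow was below 25%.

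In intron 5 of 23, NFKB1 sites pointed both ways within 11.5 kb. Site 7 (22,266,229) was lower in subfertile cows, at 17.1 ± 26.6% against 47.7 ± 32.1%, and subfertile cows 1, 4, 5 and 6 were again at 0. The same 4 cows were at 100% at site 6 (22,263,100; 92.9 ± 16.0%, n = 5, against 68.3 ± 25.6%) and at 90 to 100% at site 8 (22,274,569; 81.3 ± 22.5% against 38.3 ± 34.5%). Site 1 (22,219,142, intron 16 of 23) lay nearest to the start of the microRNA gene MIR2285BQ and had 45.8 ± 45.5% against 69.0 ± 34.5%. Groups overlapped at all NFKB1 sites but site 5.

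**Figure D2:**
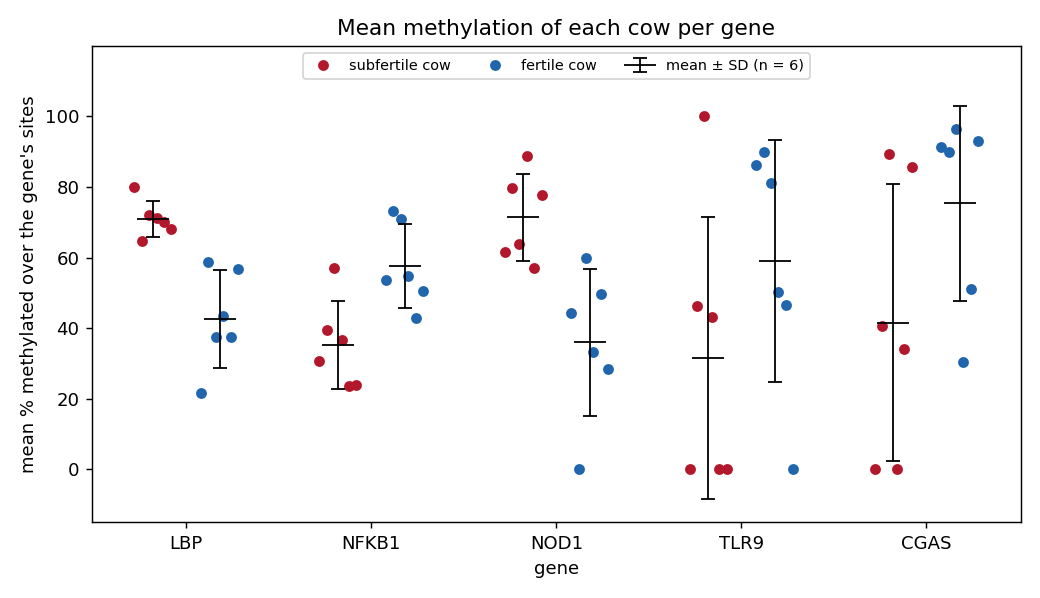
Mean percent methylated over each gene's sites (vertical axis) for each of the 6 subfertile (red) and 6 fertile (blue) cows, with group mean ± SD in black, for the 5 genes. The 2 groups of cows are apart only at LBP (64.7 to 80% against 21.7 to 58.7%), and TLR9 and CGAS cows reach from 0 to 100% and from 0 to 96.5%.

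Cytosines on the 2 strands of 1 CpG gave a limited view of the precision of single values, since both strands of 5 CpGs were present. Each strand had to pass the authors' limits itself, so these pairs were selected for likeness. Cows listed at 0 on both strands also lower the median, so single values may be less precise. Over 59 pairs of values, the strands differed by a median of 3.44 points, and the SD of the difference was 14.8 points. In 7 of the 59 the strands differed by over 25 points, the largest by 38.9 points in NFKB1. Over all 47,992 deposited CpGs with both strands, the median was 5.71 points and the SD 13.8 points.

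At CGAS and TLR9, a cow that was high at 1 site of the gene was mostly high at its other sites too, and at LBP no such order was seen. After group means were removed, Pearson's r over cows was computed for each pair of sites of different CpGs in a gene. These are descriptions over 11 or 12 cows, and the values of a cow at different sites come from the same sample. In CGAS all 5 pairs lay between 0.89 and 0.96, at distances up to 21.3 kb. In TLR9 the 5 pairs lay between 0.51 and 0.98, with a median of 0.73, and in LBP between -0.31 and 0.48. The strands of a CpG count as separate sites here, so the pairs of CGAS, TLR9 and LBP come from 3 CpGs each. Over all named genes the median r was 0.84 for sites up to 1 kb apart, 0.76 from 1 to 5 kb, 0.51 from 5 to 20 kb and 0.22 from 20 to 50 kb. These medians pool pairs of sites close in the order of sites in a gene, so genes with many sites weigh more. The CGAS pairs lay above the median for their distance. The 2 TLR9 pairs within 1 kb, at 0.51 and 0.73, lay below the median of 0.84. The TLR9 pairs further apart, at 0.68 to 0.98, lay on both sides of the median of 0.76.

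NFKB1 pairs fell into 2 sets by direction. Strands again count as separate sites, and the 8 NFKB1 sites are 6 CpGs. Among the 13 NFKB1 pairs of lower sites, r lay between 0.33 and 0.85, and among the 12 pairs of a lower with a higher site, between -0.89 and -0.25. Within each group, a cow low at the intron 6 sites was mostly high at sites 6 and 8. In NOD1 the first 6 sites gave a median r of 0.56 over 15 pairs, with 0.96 between sites 1 and 5, which are 23.6 kb apart. Pairs of 1 of these with site 7 or 8 gave a median of -0.04 over 12 pairs. The division of the NOD1 sites was made after the values were seen.

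**Figure D3:**
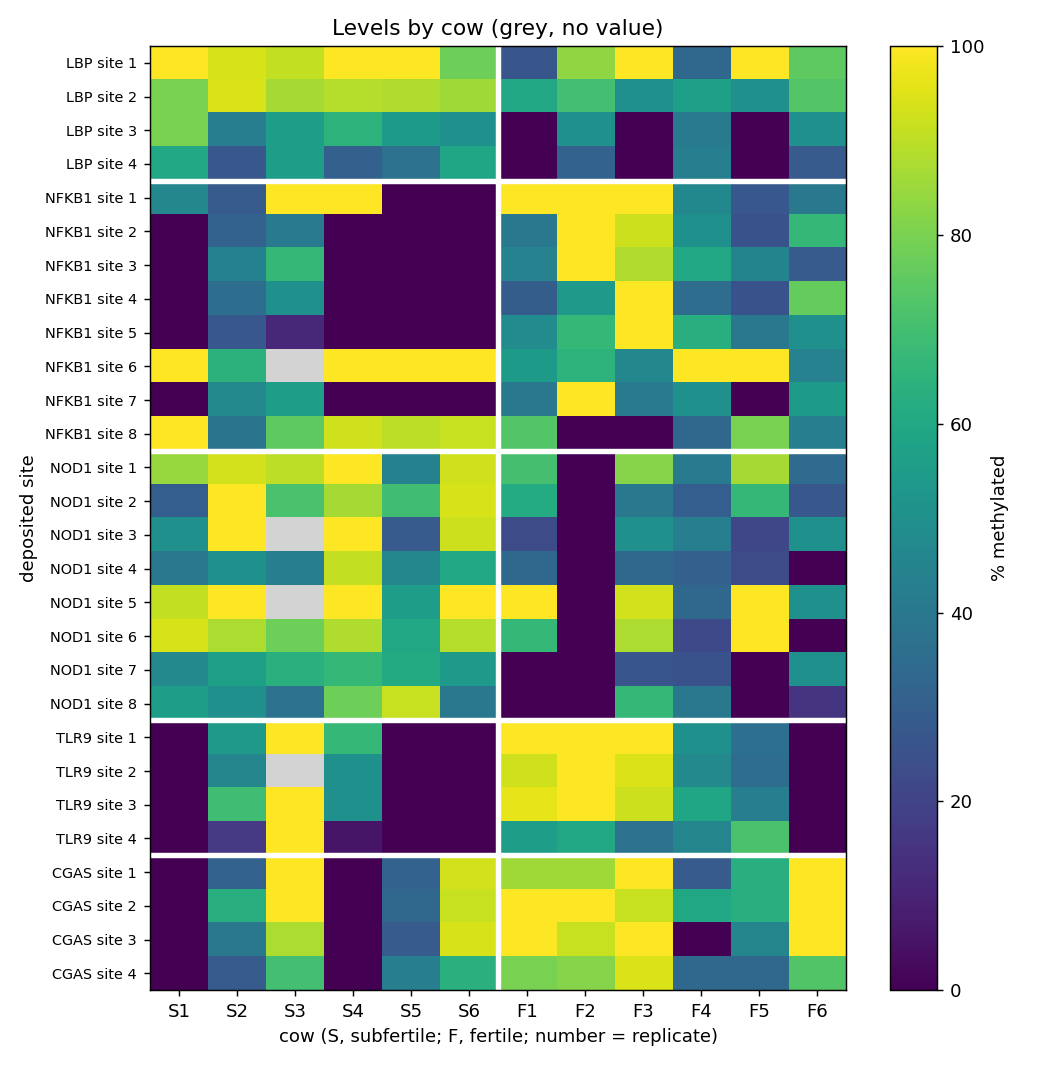
Percent methylated (colour, 0 to 100) at the 28 sites (rows) in each subfertile cow (S1 to S6) and fertile cow (F1 to F6), with grey for no value. Dark columns run through whole genes: F2 in NOD1, S1, S5, S6 and F6 in TLR9, and S1 and S4 in CGAS, while S1, S4, S5 and S6 are dark at NFKB1 sites 2 to 5 and bright at site 6.

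**Figure D4:**
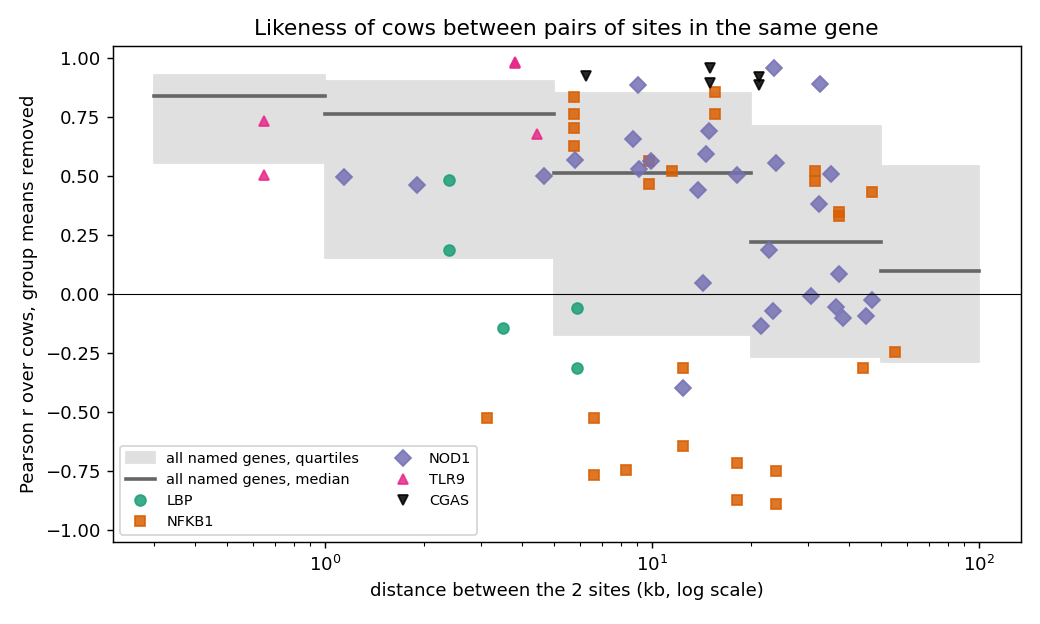
Pearson's r over cows with group means removed (vertical axis) against the distance between 2 sites of the same gene (kb, log scale), by gene. Grey bands and lines are quartiles and medians over all named genes, from pairs close in the order of sites. CGAS pairs lie at 0.89 to 0.96, and 12 NFKB1 pairs of opposite direction lie below 0.

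The order of cows seen at TLR9 and CGAS was also found at sites outside these genes. Downstream of TLR9, 7 intergenic sites 4.88 to 12.7 kb from its start were all lower in subfertile cows, averaging 27.9 ± 37.8% against 61.5 ± 37.5%. Their r with the TLR9 mean, group means removed, was 0.84 to 0.99 over 10 to 12 cows. Of all 12 other deposited sites within 100 kb of the TLR9 sites, 11 were lower and 1 higher, and 9 had an r above 0.7. Within 100 kb of the CGAS sites, all 6 other deposited sites were lower and had an r above 0.7 with the CGAS mean. Of them, 4 intergenic sites 49.5 to 63.7 kb from its start averaged 39.8 ± 38.0% against 68.0 ± 33.9%. Around NOD1, 9 of 11 such sites were higher, and around NFKB1 2 of 6 were. None of these, as single sites, had an r above 0.7. The share above 0.7 over the whole table was not computed, and the 2 strands of a CpG count as separate sites. For pairs of sites within named genes, the upper quartile of r was 0.85 from 5 to 20 kb apart. It was 0.71 from 20 to 50 kb and 0.54 from 50 to 100 kb. Around LBP there were 2 other sites, both in the flanking gene BPI, which encodes a bactericidal protein related to LBP. BPI had 50.7 ± 30.9% against 25.4 ± 38.7%, and its r with LBP was -0.25 over 12 cows.

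The genes flanking the other members were also described. ALAS1, the first enzyme of haem synthesis and the nearest other named gene with deposited sites in gene features around TLR9, had 1 site with 21.7 ± 35.5% against 38.0 ± 23.2% and an r of 0.81 with TLR9. DDX43, an RNA helicase gene 137 kb from the CGAS sites, had 47.3 ± 39.997% against 76.7 ± 29.3% over 2 sites and an r of 0.91. ZNRF2, a ubiquitin ligase gene 91.9 kb from the NOD1 sites, had 70.5 ± 25.4% against 33.0 ± 33.6% over 2 sites. The r of 0.81 with NOD1 is that of the mean of these 2 sites, not of a single site. MANBA, which encodes lysosomal beta-mannosidase, lay 33.5 kb from the NFKB1 sites and had 55.8 ± 18.004% against 49.9 ± 12.5% over 6 sites, with an r of 0.33.

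Genes elsewhere with the most similar order of cows were listed by the same r, over 12 cows and 4,775 genes with at least 3 sites. These are the highest of 4,775 values for each member, so a high r alone does not show a link between genes. The closest gene was NACC2 for LBP (0.92), RFX1 for TLR9 (0.96), SLC7A14 for CGAS (0.91), ADCYAP1R1 for NOD1 (0.95) and SEC62 for NFKB1 (0.89). The next were PKIB and C11H2orf92 for LBP, LOC509283 and FGB for TLR9, RSBN1L and EIF5A2 for CGAS, SRD5A2 and GYPC for NOD1, and PPEF1 for NFKB1. Only ADCYAP1R1, 524 kb from NOD1, lay on the chromosome of its member.

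Genes of the pathway were taken from lists by role, 147 genes in all with the 5 described included, also in the counts by role. Of these, 68 had a site and 64 a mean in all 12 cows, 32 higher and 32 lower in subfertile cows, against 51.9% higher and 48.1% lower over all named genes. The median difference was 0.70 points, against 1.70 points over all named genes. Means without overlap were found in 2 of the 64, LBP and IL33, near the 3.38% of all named genes with a mean in all 12 cows. IL33, an alarmin cytokine gene, had 74.6 ± 19.1% against 38.2 ± 6.74% over 5 sites.

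Among sensors, 13 of 22 gene means were higher and 9 lower in subfertile cows, with a median difference of 13.04 points. The median absolute difference was 27.9 points, since sites were selected for large differences. The signed median therefore mainly follows which direction has more genes and is no typical shift. NLRP12, a NOD-like receptor gene, had 78.1 ± 6.47% against 68.1 ± 22.8% over 20 sites. DDX58, the gene of the RNA sensor RIG-I, had 76.2 ± 9.76% against 47.9 ± 26.0%, with all 10 sites higher. TLR3, a receptor of double-stranded RNA, had 24.3 ± 8.23% against 47.8 ± 14.8%, with 8 of 9 sites lower, and NLRC5, a regulator of MHC class I genes, had 36.0 ± 18.04% against 69.2 ± 33.7%, with all 9 lower.

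Among adaptors and kinases, 7 of 18 gene means were higher and 11 lower, with a median difference of -12.02 points. The median absolute difference was 27.5 points, so the signed median has the same limit as for sensors. IKBKB, a kinase that marks NF-kappaB inhibitors for destruction, had 29.3 ± 13.5% against 57.96 ± 25.02%, with all 8 sites lower. TRAF5, a signalling adaptor gene with as many sites, had 67.7 ± 22.5% against 34.4 ± 22.2%, with all 8 higher. The ubiquitin ligase genes PELI2 and PELI1 had 47.7 ± 7.27% against 58.6 ± 4.03% over 17 sites and 56.0 ± 9.84% against 45.5 ± 12.2% over 10.

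Among NF-kappaB and interferon regulatory factors and their inhibitors, 7 of 14 gene means were higher and 7 lower. TAX1BP1, an adaptor of the A20 inhibitor complex, had 44.2 ± 18.4% against 75.2 ± 7.06%, with all 11 sites lower. IRF5, a transcription factor activated downstream of Toll-like receptors, had 66.6 ± 24.0% against 29.5 ± 24.5%, with all 10 sites higher. TRIM25, a ubiquitin ligase of RIG-I signalling, had 52.2 ± 9.12% against 45.3 ± 10.4% over 7 sites. Among target genes, 5 of 10 were higher and 5 lower, and only IL33 had more than 2 sites. IL18, NOS2 and SOD2 followed with 2 each, at 46.9 ± 5.83% against 47.8 ± 7.996%, 70.9 ± 18.6% against 68.6 ± 16.5%, and 27.1 ± 31.8% against 50.9 ± 43.6%.

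**Figure D5:**
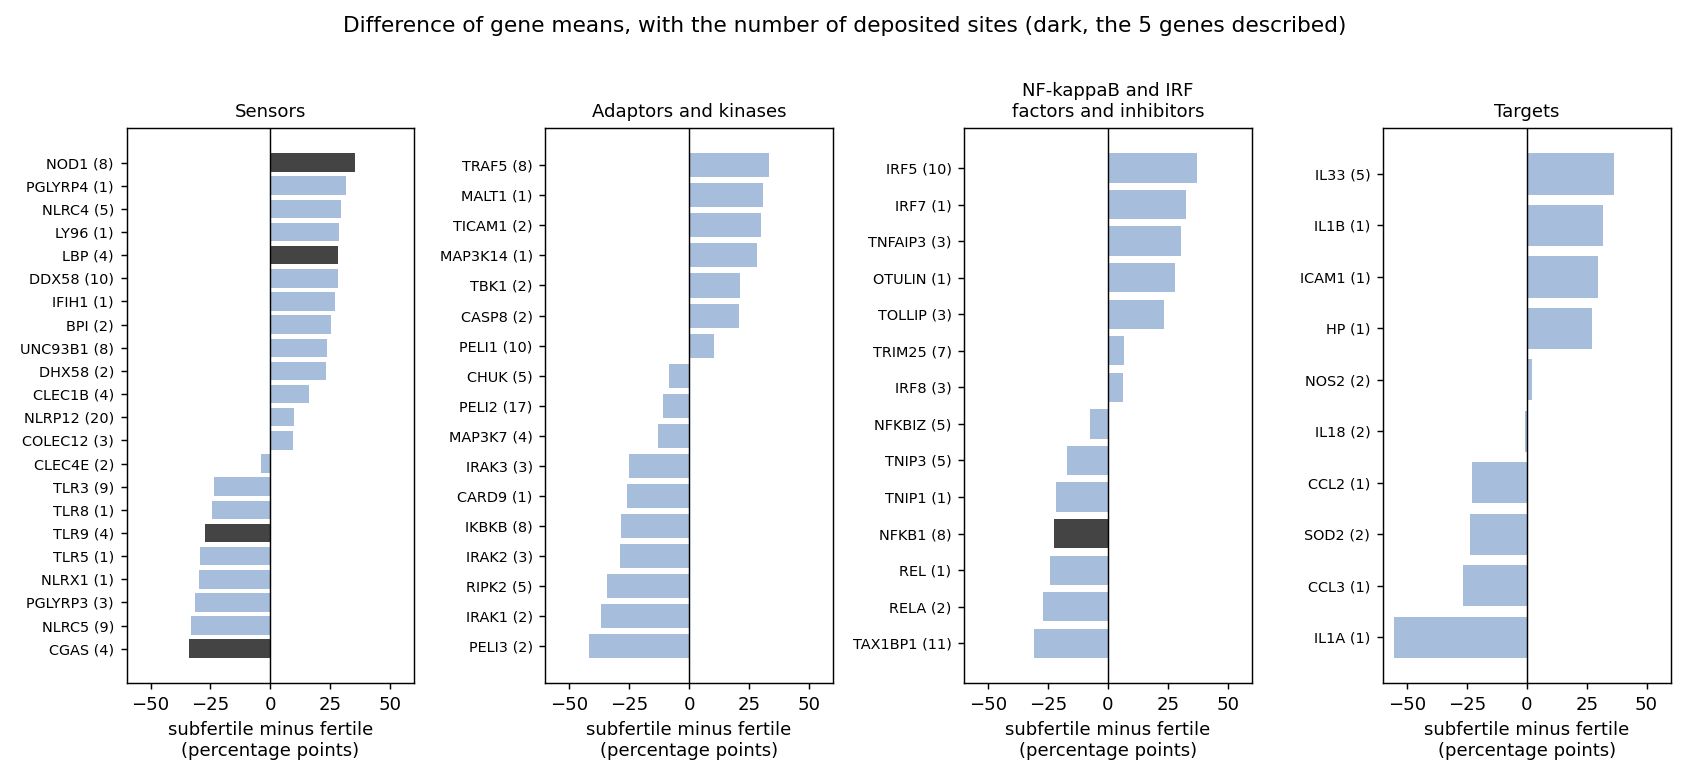
Difference of group means in percentage points (horizontal axis, subfertile minus fertile) of each pathway gene with a mean in all 12 cows, by role, with the number of deposited sites in brackets; dark bars are the 5 genes described. Both directions occur in each role, such as 13 higher and 9 lower among sensors, and 1 gene among the adaptors and kinases is not drawn.

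Shares of blood cell types were not measured, and fewer cells of a type and a change within cells cannot be told apart in whole blood. Marker genes of leukocytes were read the same way, as methylation at selected sites. B cell markers were higher in 5 of 7 genes, with a list mean of 63.8 to 78.7% in subfertile and 42.8 to 82.5% in fertile cows. Natural killer markers were lower in 5 of 8 genes, at 53.8 to 65.1% against 60.2 to 73.3%. T cell markers were higher in 5 of 9 genes, at 62.7 to 77.5% against 58.1 to 78.4%. Neutrophil and monocyte markers were higher in 2 of 4 genes, at 46.7 to 64.3% against 33.2 to 66.1%. The ranges overlapped for all 4 lists. Means without overlap were found in 1 of 4 neutrophil and monocyte, 1 of 9 T cell, 0 of 7 B cell and 1 of 8 natural killer genes. Over all named genes with a mean in all 12 cows the share was 3.38%. The lists are small, and their share was not tested against it. The marker genes without overlap were MPO of neutrophils (51.7 ± 27.1% against 87.3 ± 6.84%, 1 site), THEMIS of T cells (63.3 ± 23.9% against 93.4 ± 3.71%, 2 sites) and NKG7 of natural killer cells (78.0 ± 6.14% against 38.6 ± 21.5%, 1 site). THEMIS was lower where 5 of 9 T cell genes were higher, and NKG7 was higher where 5 of 8 natural killer genes were lower. In the B cell gene BANK1, 22 of 121 sites had no overlap, against 3.1% of all deposited sites, while the gene mean overlapped. The part of these cell types in the 5 genes was not tested. Over the whole table, 0.669 to 4.88% of sites had no value in a cow, the most in subfertile cow 3, which also lacked all 4 of the missing values among the 28 sites.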

How the data were processed

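The authors deposited 1 table of cytosines with percent methylated per cow and group. Per the file headers it also holds a signed difference, here treated as a score in percentage points. The deposited p-value and q-value come from the authors' own test; its tool was not given in the sources used here. ChIPseeker 1.32.1, DRAGEN, Bismark and fastp 0.23.1 are the tools in the submitters' processing notes, with ARS-UCD1.2 as build. No read counts are used here, and no label or header explains a read minimum (a tag in the table's name may record one), so depth and the precision it gives are unknown and no coverage minimum could be set.

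Columns were matched to cows by cow number, and 0 columns of cows were left unmatched. Replicates were numbered within a group in accession order. Cow values were averaged over a gene's sites where present (4 values were missing), then over cows, in Python 3.11.15 with pandas 2.3.3. Overlap means that the ranges of the 2 groups meet. All 5 symbols matched RefSeq gene identifiers, and 3 older symbols in the lists are aliases. The members and lists were chosen with earlier results of these data known. Each gene with at most 10 sites has all sites named. Pathway genes were named by the most sites, up to 4 per role and ties, and by means without overlap; 2 genes that the naming rules take are not reported here. Site sequences are not shown, as no genome was used here.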

Additional observations from a re-analysis of the deposited data

Results flagged for a closer look

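In 4 of 66 groups of cows checked (28 sites and 5 gene means, each in both groups), 1 cow stood apart from the rest by Dixon's criterion. For independent, normally distributed values chance flags about 1 in 20 such groups, or 3.3 here. These values are bounded, often tied and related between sites and gene means, so 3.3 is only a guide. At NFKB1 site 6, subfertile cow 2 was at 64.3%, while the other 4 subfertile cows with a value were at 100%. At NOD1 site 1, subfertile cow 5 was at 43.8%, below the next subfertile cow at 84.6%. The same cow was at 55.6% at NOD1 site 5, where the next was at 90.9%. At TLR9 site 4, subfertile cow 3 was at 100% and the next subfertile cow at 16.7%.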

How the results depend on the processing

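No paired analysis was possible because the labels number cows individually and link no cow of one group to a cow of the other. Under the alternatives that gave a value, other than leaving out a cow, the difference kept its direction at 27.5 to 34.8 points for LBP, 35.5 to 42.9 for NOD1, -31.3 to -26.9 for TLR9 and -36.2 to -30.9 for CGAS. In each of these genes all sites pointed 1 way and were selected on this contrast. Taking a part of the sites or averaging strands could therefore hardly change the direction. Leaving out 1 cow at a time gave 24.2 to 31.6 points for LBP, 28.3 to 40.2 for NOD1, -41.2 to -21.2 for TLR9, -43.4 to -25.5 for CGAS and -26.7 to -19.3 for NFKB1. The NFKB1 difference was -43.0 with the median over sites and -14.1 with strands or clusters within 1 kb averaged first. It reversed to 24.5 without sites running from under 10% to over 80%, which left 1 of its 8 sites. Without such sites 6 sites were higher, 0 lower and 1 without overlap. TLR9 and CGAS then had no site. At a deposited difference of at least 40 points, 2 were higher, 7 lower and 1 without overlap. At a deposited q of at most 0.001, 5 were higher, 10 lower and 1 without overlap, and LBP had no site under either limit. Clusters within 1 kb gave 13 higher and 9 lower, and nearest genes in place of host genes 15 higher and 25 lower. The count without overlap ran from 3 to 5 when 1 cow was left out. Leaving out a cow can only narrow a group's range, so this count could not fall. These shifts follow from the sites or cows each setting holds. Depth is unknown, so no limit from it could be set.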

Other observations

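Partners of the described receptors also held deposited sites. They were singled out after their values were seen, and not every partner is named. Over all named genes with a mean in all 12 cows, 51.9% were higher and 48.1% lower in subfertile cows. A shared or opposite direction of 2 genes is therefore common. UNC93B1, which carries TLR9 and other endosomal receptors out of the endoplasmic reticulum, had 51.4 ± 13.7% in subfertile and 27.6 ± 2.83% in fertile cows, with 7 of 8 sites higher, the opposite direction to TLR9. RIPK2, the kinase that NOD1 recruits, had 48.1 ± 32.7% against 82.4 ± 16.7%, with all 5 sites lower, the opposite direction to NOD1. RELA, the usual partner of the NFKB1 product p50, had 71.5 ± 40.2% against 98.5 ± 2.35% over 2 sites, all lower, the same direction as the NFKB1 mean. In each of these genes the means of the groups overlapped between cows, and no test was made on sites selected for the contrast.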
